A study of Mus musculus with 3 samples.

Results

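The genes described here encode coreceptors and inhibitory receptors of the B cell antigen receptor, with the phosphatase that several of them recruit. They are 9 genes, chosen by name, of the 37646 genes listed in the count files: Cd81, Cr2, Cd22, Cd72, Fcgr2b, Cd5, Pirb, Siglecg and Ptpn6. Their messenger RNA was read in 3 libraries, 1 for each of 3 spleen lymphomas of pBIC mice on the C57BL/6 strain, which the labels class as a model of ABC-DLBCL, the diffuse large B cell lymphoma that resembles activated B cells. All mice shared the genotype p53F/F, Blimp1F/F, IKK2castopF/stopF, Cg1Cre/+, that is, floxed alleles of p53 and of BLIMP1, an allele for active IKK2 behind a floxed stop, and Cre from the C gamma 1 locus. Cre is thus expected in B cells that transcribe that locus. Spleens were taken from moribund or control mice, per the labels, which give no age and no treatment of the lymphoma mice. Live cells (7AAD excluded) carrying B220 and the GFP reporter were sorted. YFP+ germinal centre B cells of immunized mice, named in the design as controls, were not analysed here, so no level below is a change from a normal cell.

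The antigen receptor of a B cell signals through tyrosine kinases, and coreceptors set how strongly it does so. CD21, the product of Cr2, binds complement fragments on an antigen and, in a complex that holds the tetraspanin CD81, lowers the amount of antigen needed. Inhibitory receptors carry short tyrosine motifs (immunoreceptor tyrosine-based inhibitory motifs, ITIMs) in their cytoplasmic parts. Once phosphorylated, mainly by the kinase LYN, these motifs bind phosphatases such as SHP-1, the product of Ptpn6, or SHIP1, the product of Inpp5d.

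The motif that gives these receptors their shared function is shown as its coding bases, taken from GENCODE release M21 transcripts (GRCm38). A narrow form was searched on the cytoplasmic side of the membrane segment of 6 receptor genes. It has isoleucine, valine or leucine 2 residues before the tyrosine and leucine 3 residues after it. The tyrosine codon is in capitals.
Cd22, motif 1, chr7:30867494-30867511, reverse strand: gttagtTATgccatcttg
Cd22, motif 2, chr7:30866600-30866617, reverse strand: atccatTACtcagagctg
Cd22, motif 3, chr7:30866540-30866557, reverse strand: gtagacTATgtgaccctc
Siglecg, chr7:43417979-43417996, forward strand: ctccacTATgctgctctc
Cd72, chr4:43454498-43454515, reverse strand: atcacgTATgcagacctg
Fcgr2b, chr1:170961071-170961088, reverse strand: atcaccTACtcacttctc
Pirb, chr7:3712786-3712803, reverse strand: gtgaccTATgcccagctg

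Cd22 held 3 such motifs and the other 4 receptors shown held 1 each, while Cd5 held 0. A broader form, which also allows serine before the tyrosine and isoleucine or valine after it, was found 4 times for Cd22, 3 times each for Siglecg and Pirb, 2 times for Cd72 and 1 time each for Fcgr2b and Cd5. Each motif shown lies within 1 exon. All 33 windows of 50 bases (the read length) that cover each of the 7 motifs occur in no transcript of another gene. These are matches of letters in the reference, and binding of a phosphatase was not measured.

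Library totals ran from 15022902 to 15141009 counts, and 20504 to 21549 genes had at least 1 count. Levels of a gene between tumours are given in CPM (counts per 1000000, with TMM scaling of the library sizes), and levels of different genes are compared in TPM, which also divides by gene length. Defining markers of B cells were abundant, with a summed level of 12024 to 14056 CPM over 11 pan-B genes, each of which was at 1 CPM or more in the 3 tumours. Cd74, which other antigen-presenting cells also express, made up 63.7%, 72.4% and 79.5% of that sum. The other 10 genes summed to 5107, 3317 and 2749 CPM, with Ebf1 the lowest at 13.9, 4.87 and 2.29 CPM. No library repeated another, as chi-square per degree of freedom between their raw counts was 83.3 to 91.8. The same heavy-chain V gene, Ighv8-11, held most Ighv counts in each library, at 74.0%, 81.4% and 83.2% in tumours 1, 2 and 3. Whether the tumours arose independently was not tested, and the labels do not say that the mice were unrelated, so the spread below is that between these 3 samples.

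Of the 9 genes 8 reached 1 CPM in every tumour and 6 reached 10 CPM, against 28.7% and 20.7% of all listed genes. The median level of the 9 genes was 147 TPM and that of all 11478 genes tested for variability was 22.4 TPM. Ptpn6, Cd22, Cd81, Fcgr2b and Siglecg formed the abundant part of the set, Cd72 lay below them, and Pirb, Cd5 and Cr2 were scarce. Cr2 was close to absent in 2 of the 3 tumours.

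**Figure D1:**
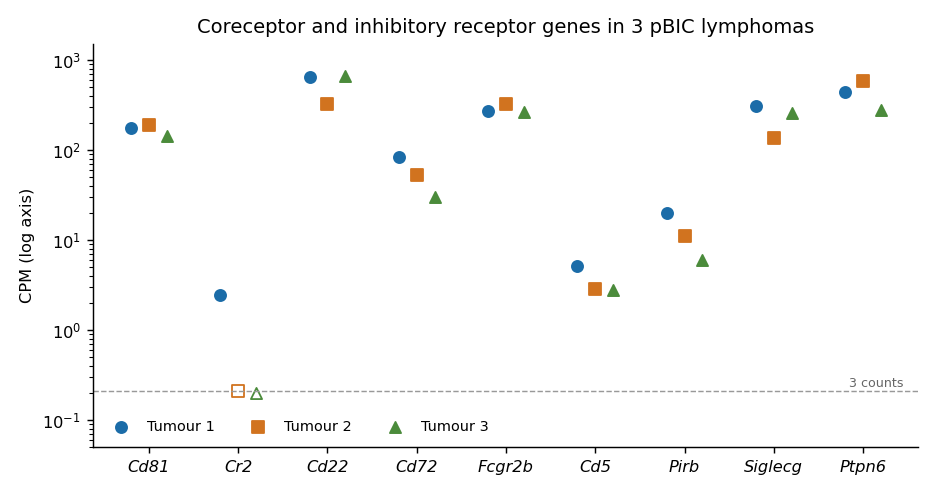
Level of each of the 9 genes in each tumour, in CPM on a log axis, with 1 symbol per library. Open symbols are libraries with at most 3 counts, drawn at the level of 3 counts (dashed line), which concerns Cr2 alone, with 0 counts in tumour 2 and 1 count in tumour 3.

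Among the coreceptors, Cd81 (ENSMUSG00000037706.17, chromosome 7, 143052739 to 143067934, forward strand), a tetraspanin of the coreceptor complex, had 173, 187 and 142 CPM in tumours 1, 2 and 3. The 3 tumours were close together, with a mean of 168 ± 22.9 CPM (SD, n = 3) and a 1.31-fold range. Of all tested genes 79.8% had a wider range.

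Cr2 (ENSMUSG00000026616.16, chromosome 1, 195136811 to 195176716, reverse strand), which in mice encodes both complement receptors CD21 and CD35, had 38, 0 and 1 counts. Tumour 1 was at 2.46 CPM, with a 95% exact Poisson interval of 1.74 to 3.38 CPM. Tumour 2 had no count, which allows up to 0.209 CPM (3 counts), and tumour 3 had 0.0654 CPM. On the floor of 3 counts per library for tumour 2, tumour 1 was therefore 11.8-fold higher or more at its point estimate. From the lower end of its interval it was 8.35-fold higher or more. Its ratio to tumour 3 was 37.7, with an exact 95% counting interval of 6.36 to 1526. Intervals and floors cover counting error only, since each tumour had 1 library. The libraries also carry no molecular identifiers, so copies of the same molecule could not be told apart.

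The result for Cr2 depends on the filter for low counts. The main fit (edgeR quasi-likelihood model, adjusted p over all genes tested) asks for a minimum level in every tumour, so Cr2 was not tested there. With no filter its edgeR adjusted p was 0.0212, where 0.643% of 25500 genes passed the threshold of 0.05. Where genes needed 10 counts on average, the edgeR adjusted p was 0.307. Without tumour 1, no library had more than 1 count of Cr2. Cr2 shared 0 of its 8392 windows of 50 bases with other genes. Cr2 is also known from follicular dendritic cells. Of 8 follicular dendritic cell markers 4 lay at or under 3 counts in every tumour, among them the defining Cxcl13, with 0, 0 and 1 counts. The summed level of the list was 37.9, 111 and 34.1 CPM, nearly all of it Madcam1 at 36.2, 108 and 30.3 CPM. The part of such cells in the Cr2 level was not tested.

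The difference Cd81 minus Cr2 was 7.10 ± 0.43 (SD, n = 3) in log2(TPM + 1), with the same sign in 3 of 3 tumours. Its size depends on the added 1, since Cr2 was at 0.990, 0 and 0.0243 TPM, and it was 9.51 with 0.1 added. The two-sided exact sign-flip p was 0.25 for each of the 9 differences computed between genes of a tumour, also 0.25 after Benjamini-Hochberg adjustment over them, and 0.25 is the smallest p that 3 tumours allow. Of 16 other genes of the coreceptor complex and the tetraspanins 14 reached 1 CPM in every tumour, among them the tetraspanin genes Cd37 (685 ± 201 CPM) and Cd53 (185 ± 51.3 CPM), and 0 of the 14 tested passed the edgeR test. The list median was 33.7 TPM. Of genes listed for ligands of CD21, named here after their values were seen, complement C3 had 3.76, 32.1 and 1.44 CPM (edgeR adjusted p = 0.0536). Fcer2a, the low-affinity IgE receptor gene on the same list, had 0.914 ± 0.397 CPM. Whether its product binds CD21 in mice was not tested.

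CD22 and Siglec-G are lectins that bind sialic acid on the same or a neighbouring cell and dampen the antigen receptor. Cd22 (ENSMUSG00000030577.14, chromosome 7, 30865402 to 30880342, reverse strand) had 647, 321 and 661 CPM, a mean of 543 ± 192. Siglecg (ENSMUSG00000030468.12, chromosome 7, 43408204 to 43418358, forward strand) had 305, 134 and 254 CPM, a mean of 231 ± 87.8. Both were lowest in tumour 2, with ranges of 2.06-fold and 2.28-fold. Their ratio was similar in the 3 tumours. The difference Cd22 minus Siglecg was 1.01, 1.19 and 1.30 in log2(TPM + 1), a mean of 1.17 ± 0.15 and 2.25-fold. Neither gene passed the edgeR variability test, with adjusted p of 0.922 for Cd22 and 0.907 for Siglecg.

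Enzymes that make their sialic acid ligands are named here after their values were seen. St6gal1, which makes the sialic acid linkage that CD22 prefers, had 223, 398 and 113 CPM and was highest in tumour 2 (edgeR adjusted p = 0.497). Cmah, whose product converts sialic acid to the glycolyl form that mouse CD22 binds best, had 206, 170 and 213 CPM, lowest in tumour 2 as Cd22 was. Of the 16 genes of ligands and ligand enzymes for the set, low ones included, 12 were highest in tumour 2, where 35.8% of all tested genes were highest. None of the 13 tested passed the edgeR threshold, and the list median was 57.5 TPM. The leading 3 in TPM were B2m, Cd52 and H2-K1. B2m and H2-K1 encode class I histocompatibility chains, which PIR-B binds, at 3986 ± 807 and 1773 ± 323 CPM. Cd52, whose glycoprotein is a ligand of Siglec-10 in humans, had 1174 ± 280.2 CPM.

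Cd72 (ENSMUSG00000028459.11, chromosome 4, 43446462 to 43454628, reverse strand) encodes an inhibitory lectin-like receptor that binds semaphorin 4D. It had 82.3, 53.1 and 30.3 CPM, a mean of 55.2 ± 26.1 and a 2.72-fold range between tumours 1 and 3. Its unadjusted p of 0.0548 was the smallest of the 8 tested genes of the set, and the edgeR adjusted p was 0.816. Cd22 exceeded it in every tumour, with a difference Cd22 minus Cd72 of 2.75 ± 0.96 in log2(TPM + 1), 6.73-fold. Sema4d, the gene of its ligand, had 151 ± 28.9 CPM in the same libraries. The exons of Cd72 overlap those of Tesk1 on the opposite strand over 1423 bases, 41.6% of the Cd72 union exon length. Tesk1 had 105, 57 and 151 counts, against 1270, 763 and 463 for Cd72, and was highest in tumour 3, where Cd72 was lowest. Whether counting used strand is not given, so the level of Cd72 is uncertain.

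Fcgr2b (ENSMUSG00000026656.15, chromosome 1, 170958617 to 170976547, reverse strand) encodes the inhibitory receptor for IgG immune complexes, which acts mainly through SHIP1. It had 272, 326 and 261 CPM, a mean of 286 ± 34.8. This 1.25-fold range was the narrowest of the set, and 85.7% of tested genes had a wider one. The related activating receptor genes had lower levels in every tumour. Fcgr3 had 0.777, 2.64 and 0.850 CPM and Fcer1g, the signalling chain they share, 2.92, 6.33 and 1.24 CPM. Fcgr4 was the most abundant of the 5 listed activating genes, with 48.1, 26.0 and 9.11 TPM against 153, 154 and 136 TPM for Fcgr2b, and 0 of the 3 tested passed the edgeR test. The difference Fcgr2b minus Fcgr3 was 5.56 ± 0.57 in log2(TPM + 1), 47.0-fold, in 3 of 3 tumours. Of the 5685 windows of 50 bases in Fcgr2b transcripts, 2.92% also occur in Fcgr3.

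Pirb (ENSMUSG00000058818.13, chromosome 7, 3711409 to 3720391, reverse strand), the paired immunoglobulin-like receptor that recognises class I molecules, had 19.8, 11.1 and 5.95 CPM. Its mean was 12.3 ± 7.01, and its 3.33-fold range was the widest of the 8 tested genes. In the edgeR variability test its adjusted p was 0.953. Pirb is also expressed by myeloid cells. The summed level of 11 neutrophil markers had the same order of tumours, at 60.0, 22.7 and 3.79 CPM, with 0 of 11 at 1 CPM in every tumour and S100a9, Ngp and S100a8 leading in TPM. The 13 macrophage and monocyte markers summed to 31.4, 117 and 20.3 CPM, 5 of them at 1 CPM in every tumour. Csf1r had 2.59, 3.55 and 1.96 CPM, C1qa reached 7.10 and C1qb and C1qc 7.17 CPM in tumour 2, and Fcgr1 and Cd14 were below 1 CPM in each tumour. Among them Lyz2, at 7.58, 56.2 and 4.05 CPM, passed the edgeR variability test (adjusted p = 0.0372). That call was lost with library totals (0.106), with a minimum of 10 counts on average (0.139), with limma (0.124) and without tumour 1, 2 or 3 (adjusted p of 0.144, 0.988 and 0.131). The part of such cells in the Pirb level was not tested.

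Counts of Pirb also carry the uncertainty of a gene family. Of its 4648 windows of 50 bases 34% occur in at least 1 other gene, most often in Gm14548 and Pira2. The 8 genes that share most windows with it had 129, 46 and 33 counts in sum in tumours 1, 2 and 3, against 306, 160 and 91 for Pirb. Both sums were highest in tumour 1 and lowest in tumour 3. Pira2, which encodes an activating partner, was the only listed gene with a Pira symbol and had 1.62, 0.487 and 0.719 CPM. The difference Pirb minus Pira2 was 2.24 ± 0.54 in log2(TPM + 1), in 3 of 3 tumours. It leaves out the other genes that share windows with Pirb.

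Cd5 (ENSMUSG00000024669.8, chromosome 19, 10717116 to 10739002, reverse strand) encodes a scavenger receptor family protein found on T cells and on B1 cells, where it restrains antigen receptor signals. It was scarce, with 79, 41 and 42 counts, or 5.12, 2.85 and 2.75 CPM. Tumour 1 was the highest and tumours 2 and 3 were close together (edgeR adjusted p = 0.997). T cell transcripts were also present. Of 16 T cell markers 12 reached 1 CPM in every tumour, with summed levels of 174, 126 and 195 CPM, led in TPM by Cd2, Cd8b1 and Lck. Together with Cd6 these leading genes made up most of the sum in each tumour. Cd8b1 had 24.7, 18.8 and 55.2 CPM, against 2.20, 5.91 and 7.91 CPM for Cd8a. The defining Cd3e had 1.62, 2.23 and 1.70 CPM. The difference Cd5 minus Cd3e was 0.94, 0.05 and 0.25 in log2(TPM + 1), a mean of 0.41 ± 0.46 that lay within its spread. The part of T cells in the Cd5 level was not tested, and in bulk RNA fewer cells of a type cannot be told apart from less RNA per cell. Other genes linked to B1 cells included abundant ones. All 7 reached 1 CPM in every tumour, led in TPM by Zbtb32 at 164 ± 58.4 CPM and Bhlhe41 at 229 ± 79.4 CPM, both transcription factors, and by Plscr1 at 81.0 ± 60.9 CPM. The lowest in TPM were Ctla4 at 13.2 ± 2.04 CPM and Itgam at 3.56, 2.02 and 1.31 CPM.

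Ptpn6 (ENSMUSG00000004266.15, chromosome 6, 124720707 to 124738714, reverse strand) encodes SHP-1, a phosphatase known to dock on ITIMs. It had 438, 581 and 275 CPM, a mean of 431 ± 153 and a 2.12-fold range, highest in tumour 2 and lowest in tumour 3 (edgeR adjusted p = 0.978). On the length-corrected scale it was the most abundant of the set, at 457 ± 143 TPM, above 98.0% of tested genes. It exceeded Ptpn11, which encodes the related SHP-2, by 3.03 ± 0.68 in log2(TPM + 1), 8.17-fold, and by 3.09-fold without division by length. It exceeded Inpp5d, the SHIP1 gene, which had 135, 88.4 and 166 TPM, by 3.48-fold with an SD of 0.92 on the log2 scale. Both differences in TPM had the same sign in 3 of 3 tumours. The difference from Inpp5d rests on the lengths. Without division by length it was 1.29-fold, with differences of 0.47, 1.24 and -0.61 on the log2 scale, so that Inpp5d was the higher in tumour 3.

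All 14 other genes of inhibitory signalling reached 1 CPM in every tumour. Csk, the kinase that holds SRC family kinases in check, led them in TPM and had 438, 462 and 419 CPM. Lyn, which phosphorylates ITIMs, had 241, 205 and 133 CPM. Inpp5d had 315, 246 and 419 CPM, lowest in tumour 2 where Ptpn6 was highest. None of the 14 passed the edgeR variability test, and the list median was 35.9 TPM. All 13 genes of the antigen receptor and its proximal activators reached 10 CPM, led in TPM by Cd79b (318 ± 94.6 CPM), Cd79a (236 ± 116 CPM) and Grb2 (370 ± 47.6 CPM), with a list median of 187 TPM against 147 TPM for the 9 genes, and 0 of the 13 passed. The smallest p there was that of Bank1, an adaptor gene named after its values were seen, with 159, 37.4 and 29.6 CPM (edgeR adjusted p = 0.0907).

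**Figure D2:**
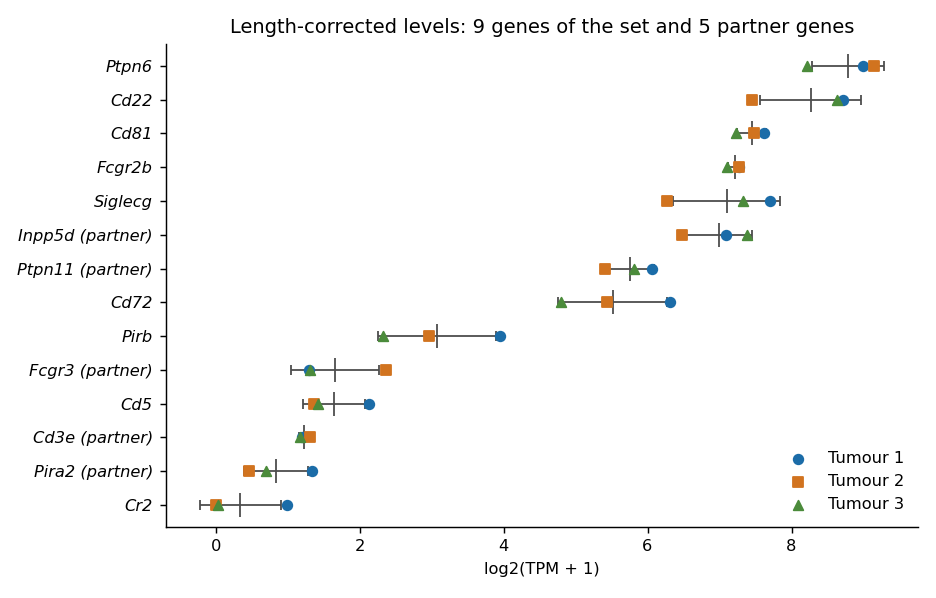
Length-corrected level, log2(TPM + 1), of the 9 genes and of 5 partner genes, with 1 symbol per tumour, the mean as a vertical tick and the SD as a bar (n = 3). Ptpn6 and Cd22 lead the set, and Pirb, Cd5 and Cr2 lie below Cd72.

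In order of mean log2(TPM + 1) the set ran Ptpn6, Cd22, Cd81, Fcgr2b, Siglecg, Cd72, Pirb, Cd5 and Cr2. Of the 8 neighbour pairs 5 differed beyond their spread, that is, with the same sign in all tumours and a mean above the SD. The 3 that did not were Ptpn6 and Cd22 (0.52 ± 1.08), Cd22 and Cd81 (0.82 ± 0.75) and Fcgr2b and Siglecg (0.12 ± 0.78). In tumour 2 Cd22 lay level with Cd81, at 174 and 178 TPM, while in tumours 1 and 3 it was well above. Cd81 exceeded Fcgr2b by only 0.23 ± 0.11, and that order rests on the lengths. In CPM, which does not divide by length, Fcgr2b was the higher in every tumour, at 272, 326 and 261 against 173, 187 and 142. The widest step between neighbours was from Cd72 to Pirb, 2.43 ± 0.06. The low part of the order, from Siglecg to Cr2, kept its direction in every tumour.

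The variability test asked whether a gene differed between tumours more than genes of similar abundance do. In this edgeR test 0 of the 8 tested genes passed the adjusted threshold, where 0.139% of 11478 genes did, and the adjusted p ran from 0.816 to 0.997. At an unadjusted p under 0.05 the count was also 0, against 6.27% of all tested genes. With limma and with a DESeq2 dispersion trend 0 of the 8 passed as well. A range over 2-fold was seen for 5 of the 8 (Cd22, Cd72, Pirb, Siglecg and Ptpn6), against 28.7% of tested genes, and the median range was 2.09-fold against 1.64-fold. These shares are descriptions of chosen genes.

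**Figure D3:**
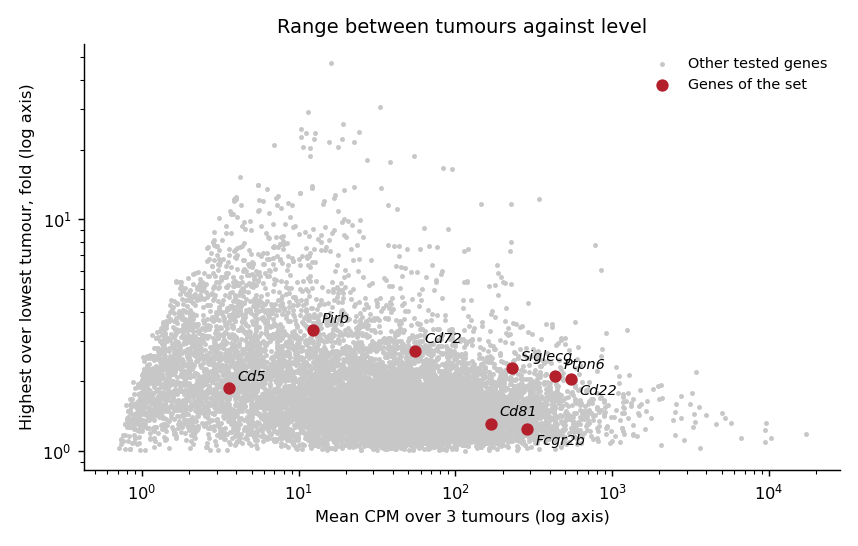
Fold between the highest and the lowest tumour against mean CPM, both on log axes, for the 11478 tested genes (grey) and the 8 tested genes of the set (red). Fcgr2b and Cd81 lie low in the cloud, at 1.25-fold and 1.31-fold, and Pirb lies highest of the set, at 3.33-fold.

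None of the 8 passed the test, so the following orders are descriptions. Cd72, Pirb, Cd5 and Siglecg were highest in tumour 1, Ptpn6, Cd81 and Fcgr2b in tumour 2, and Cd22 in tumour 3, with 661 against 647 CPM in tumour 1. These counts of 4, 3 and 1 of 8 stand beside 32.4%, 35.8% and 31.8% of all tested genes. Tumour 3 was lowest for 6 of the 8, tumour 2 for Cd22 and Siglecg, and tumour 1 for none of them, beside 33%, 34.5% and 32.5% of all tested genes lowest in tumours 3, 2 and 1. For Cd5 that rests on 42 counts against 41 in tumour 2. Relative to the mean of each gene, Cd22 and Siglecg stood at -0.68 and -0.70 on the log2 scale in tumour 2. Cd72 and Pirb stood at 0.69 and 0.86 in tumour 1 and at -0.75 and -0.88 in tumour 3.

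**Figure D4:**
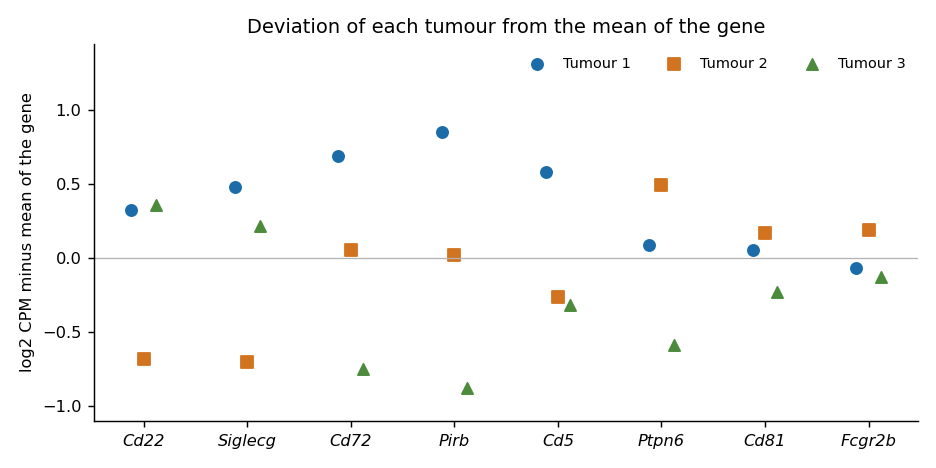
Log2 CPM of each tumour minus the mean of the gene over 3 tumours, for the 8 tested genes. Cd22 and Siglecg have tumour 2 lowest, Cd72 and Pirb spread from tumour 1 to tumour 3 around a middle tumour 2, and Fcgr2b and Cd81 lie near 0.

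The profiles most like those of 2 genes were looked up among 11477 other tested genes by the mean absolute difference of centred log2 CPM over the 3 tumours. For Cd72 they were Ccrl2 (0.0105), Atr (0.0114) and Dock10 (0.0176), and 79 genes lay within 0.1. For Fcgr2b they were Scfd1 (0.0019), H2-DMa (0.0019) and Ints8 (0.0031), and 1014 genes lay within 0.1. The points share the same 3 libraries.

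A list of other receptors, drawn up for such motifs, was read beside the set. Their motifs were not searched, so being on the list does not show that a receptor carries one. Of these 11 receptors 10 reached 1 CPM in every tumour, against 28.7% of all listed genes. Low ones included, 8 were highest in tumour 1, where 32.4% of all tested genes were highest. Btla, an inhibitory receptor for HVEM, led in TPM with 217 ± 91.3 CPM. Fcrl1, an Fc receptor-like gene, had 172, 158 and 90.5 CPM, and Pecam1 had 152, 136 and 149 CPM. None of the 10 tested passed the edgeR variability test, and the list median was 7.87 TPM. The smallest p belonged to Lair1, the collagen receptor gene, with 6.93, 4.66 and 46.7 CPM (edgeR adjusted p = 0.0659), and to Fcrl5, with 154, 55.2 and 20.2 CPM (edgeR adjusted p = 0.0721). Both were named after their values were seen.

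**Figure D5:**
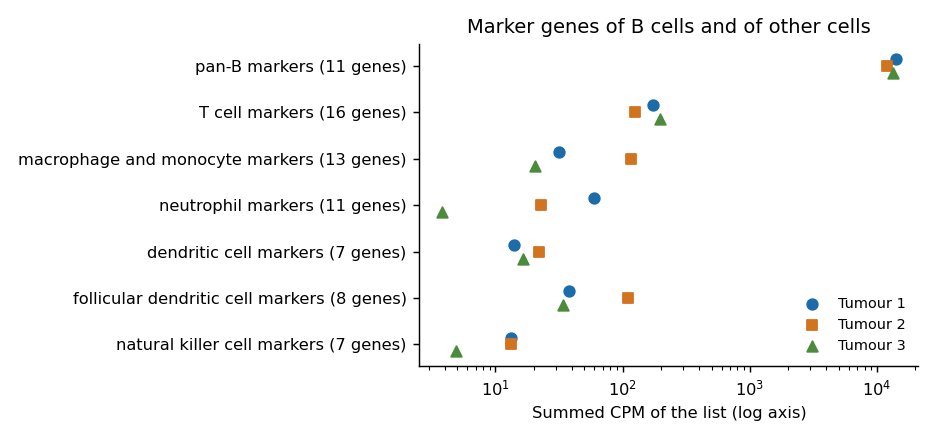
Summed CPM of marker lists for B cells and for other cells that the sort could hold, on a log axis, with 1 symbol per tumour. The pan-B sum, most of it Cd74, lies between 12024 and 14056 CPM, and no list of other cells exceeds 195 CPM.

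Dendritic cell markers summed to 13.9, 22.1 and 16.5 CPM, led by Flt3 and Zbtb46 and with Cd209a at 0 counts in every tumour, and natural killer cell markers to 13.3, 13.4 and 4.90 CPM.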

How the data were processed

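Polyadenylated RNA of sorted B220+GFP+ spleen cells was sequenced as single 50 nt reads, per the labels. The authors deposited the raw counts of reads for each gene, unnormalized, in a file for each tumour. The submitters' processing notes name FastQC, STAR (2.5.2b), featureCounts (1.6.0) and mm10. Annotation release, strand and handling of multi-mapped reads were not given in the sources used here. Of 37646 listed genes 37536 were in GENCODE M21 (GRCm38) when versions were ignored, and gave positions and lengths. CPM used library sizes scaled by TMM in edgeR 4.0.16 under R 4.3.3, with factors from 0.959 to 1.02, and TPM used union exon lengths. At this depth 3 counts correspond to 0.194, 0.209 and 0.196 CPM.

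The labels give 1 group, with tumours numbered in accession order, so there was no contrast. The edgeR quasi-likelihood model had only an intercept and took the 11478 genes kept by filterByExpr. Each gene's residual deviance on 2 degrees of freedom, over the robust prior variance at its abundance, gave a one-sided F test (denominator 15.8). Adjustment was by Benjamini-Hochberg over these genes, at a threshold of 0.05. The procedure was tested on simulated data in which the changes were larger than any range among the tested genes of the set. Whether it could detect ranges of their size was therefore not tested. Differences between genes of a tumour used log2(TPM + 1) and an exact two-sided sign-flip test. A gene of the lists and its difference are not reported here. From each list the 3 genes with the highest TPM, any gene past the threshold and the genes of the compared pairs are named, with the 3 nearest profiles for the members with the smallest and the largest p. The members and lists were chosen with earlier results of these data known. Motifs were read from M21 transcripts with biopython 1.88. The membrane segment was the most hydrophobic stretch of 19 codons, and the inside was taken as its carboxyl side (amino side for CD72). Alternatives covered scaling, filters, gene length, pseudocount, limma 3.58.1, DESeq2 1.42.0 and each tumour left out.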

Additional observations from a re-analysis of the deposited data

How the results depend on the processing

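The number of genes past the variability threshold, 16 of 11478, was 0 with library totals, 164 with no filter on low counts, 0 with a mean count of at least 10, 8 with limma-trend and 119 with the DESeq2 dispersion trend, and 0 to 11 with a tumour left out. It was 15 with DESeq2 size factors. The number of genes of the set past it was 0 in the main analysis and 1, Cr2, with no filter. It was 0 under the other alternatives. With tumours left out the ranks by TPM ran from 3 to 4 for Cd81, 1 to 2 for Cd22, 4 to 5 for Fcgr2b, 3 to 5 for Siglecg and 1 to 2 for Ptpn6, each change arising without tumour 2. With the longest transcript as length no rank changed. Ranks without division by length were not computed, and Cd81 lay below Fcgr2b in CPM in every tumour. The means of the 9 differences between genes kept their direction in all 72 recalculations, including without division by length and with a pseudocount of 0.1. Library totals and DESeq2 size factors do not enter TPM, so those recalculations could not move a difference. For Ptpn6 minus Inpp5d the mean fell to 0.37 on the log2 scale without division by length, with tumour 3 reversed. The difference not reported here nearly vanished with the longest transcript. Without division by length the difference Fcgr2b minus Fcgr3 was 6.97 on the log2 scale, and with a pseudocount of 0.1 Pirb minus Pira2 was 3.17. No paired analysis was possible because the labels give 1 group. Causes of the changes were not tested. Depth limits Cr2, at or under 3 counts in tumours 2 and 3.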
